A study of Drosophila melanogaster with 12 samples.

Results

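The phototransduction genes described here are 10 genes of the light response of the fly eye: Arr1, Arr2, inaD, inaC, trp, trpl, rdgA, rdgC, Cpn and ninaB. They are 10 of the 11982 genes that the array annotation names through a probe set of a single gene, and each of the 10 was measured. Where a gene had several such probe sets, the one with the highest mean signal over the 12 arrays was taken, which applied to rdgA and rdgC, and this mean is not treated as a finding. The genes were chosen by results measured on these same arrays, and which comparison led to each is not recorded, so the p-values below describe single genes and are no independent evidence about the group. RNA of whole Drosophila melanogaster males, labelled wild type, was measured on 12 Affymetrix arrays, each from 8 pooled flies. Males exposed to methylphenidate for 24 hours and males exposed to sucrose for 24 hours made up 2 groups of 3 arrays. F1 males made up the other 2 groups of 3 arrays: male offspring of sucrose-exposed fathers and methylphenidate-exposed mothers, and male offspring of parents that were both exposed to sucrose. They are called sons below. The labels state neither the ages nor the dose, nor when the parents were exposed or what the sons ate. The design text of the series names the cross with methylphenidate-exposed mothers for all 6 samples of sons, whereas the sample labels name both crosses, and the labels were followed. No label says that the 3 arrays of a group stand for separate cultures, and the p-values then cover only the spread among these arrays, which may be technical.

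Methylphenidate is a psychostimulant that blocks the dopamine transporter. In fly photoreceptors, light converts rhodopsin to its active form, which acts through a Gq protein on the phospholipase C NORPA, and the breakdown of a membrane phosphoinositide opens the TRP and TRPL cation channels. INAD, a scaffold of PDZ domains, holds TRP, the phospholipase and the protein kinase C INAC together, and arrestins and the phosphatase RDGC return rhodopsin to rest. The light-absorbing chromophore is a retinal that flies make from dietary carotenoids. In whole males these genes are read against the RNA of all other tissues. Fewer photoreceptors, less RNA per photoreceptor and a change in RNA of these genes from other tissues therefore cannot be told apart.

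The values are log2 probe set signals as deposited. Between 36.8% and 38.8% of probe sets had a signal under 0.5 on each array, close to the floor of the scale, whereas the 10 genes lay between 1.85 (ninaB) and 8.999 (Arr2) on every array, above that floor. Arrays of 1 group correlated at 0.995 to 0.997. Replicate 3 of the sons of sucrose-exposed parents stood apart, with a median signal of 1.37 against 1.49 to 1.57 on the other 11 arrays, and within its group it had the lowest value for all 10 genes. Calls of the 10 genes that changed without it are named below. The tissue sums, the full separations and the correlations between genes include this array. The markers of a whole male were present, with testis, accessory gland, muscle and gut lists summing to between 10.28 and 12.52 on the log2 scale on each array.

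Across the 4 groups the genes took different courses. Arr2, inaD and trpl were lower in sons than in exposed males, both between the sucrose groups and between the methylphenidate groups. Cpn and ninaB were higher in sons in both comparisons, and were also higher in methylphenidate-exposed than in sucrose-exposed males. trp, rdgA and rdgC were lower in sons of sucrose-exposed parents than in sucrose-exposed males, and did not pass between the methylphenidate groups. Arr1 and inaC passed in no comparison. Between the 2 groups of sons none of the 10 genes passed. All tests were 2-sided limma tests on the whole array with Benjamini-Hochberg adjustment over 18769 probe sets and a threshold of 0.05, and SE denotes the standard error of a log2 change in that fit.

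**Figure D1:**
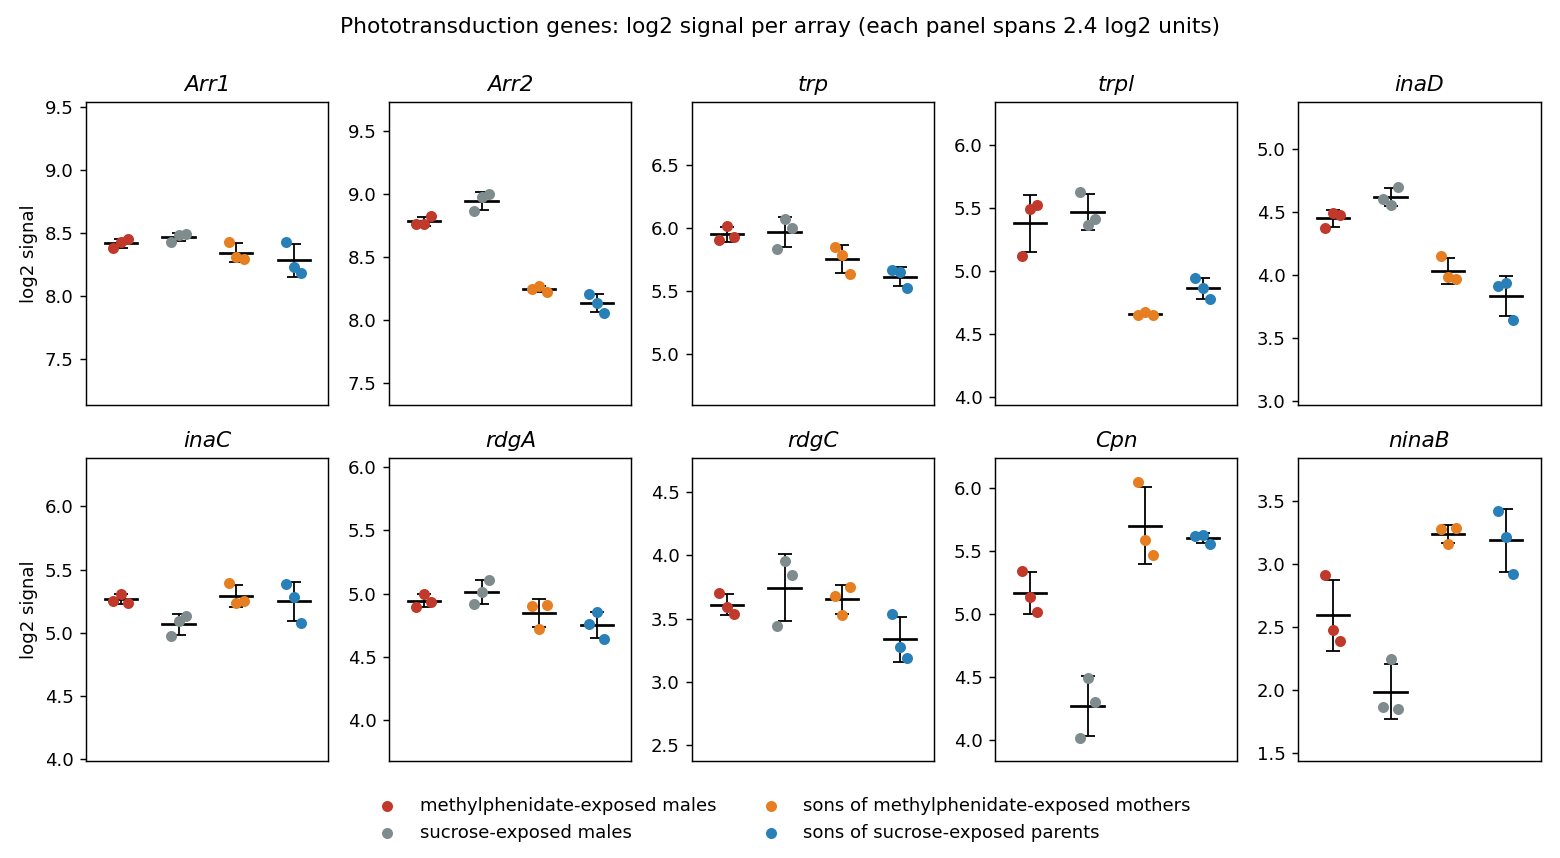
Log2 signal of each of the 10 genes on the 12 arrays, 1 panel per gene. Points are arrays in the order of their replicate numbers, the long bar is the group mean and the error bar the SD (n = 3). The vertical axes span the same range of 2.4 log2 units but start at different values. Arr2, inaD and trpl lie lower in both groups of sons than in both groups of exposed males, and Cpn and ninaB lie lowest in sucrose-exposed males.

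The arrestins bind activated rhodopsin and stop it from signalling. Arr2 (probe set 1632111_at) had signals of 8.76, 8.76 and 8.83 in methylphenidate-exposed males, 8.87, 8.98 and 8.999 in sucrose-exposed males, 8.25, 8.27 and 8.22 in sons of methylphenidate-exposed mothers and 8.21, 8.14 and 8.06 in sons of sucrose-exposed parents. All 6 arrays of sons lay below all 6 arrays of exposed males. In sons of sucrose-exposed parents Arr2 was 1.76-fold lower than in sucrose-exposed males (8.14 ± 0.074 against 8.95 ± 0.072, SD, n = 3 each; difference -0.81 ± 0.07 SE on the log2 scale, limma adjusted p = 1.7e-05). Between sons of methylphenidate-exposed mothers and methylphenidate-exposed males it was 1.45-fold lower (8.25 ± 0.025 against 8.78 ± 0.035, SD, n = 3 each; difference -0.54 ± 0.07 on the log2 scale, limma adjusted p = 0.000181). The methylphenidate-exposed males lay below the sucrose-exposed males without overlap (difference -0.16 on the log2 scale), which did not pass (limma adjusted p = 0.257).

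Arr1 (1636163_at) kept a narrower range. Its signals were 8.38, 8.42 and 8.45 in methylphenidate-exposed males, 8.43, 8.48 and 8.49 in sucrose-exposed males, 8.43, 8.31 and 8.29 in sons of methylphenidate-exposed mothers and 8.43, 8.23 and 8.18 in sons of sucrose-exposed parents. Neighbouring groups overlapped throughout the order of its means. The log2 difference between sons of sucrose-exposed parents and sucrose-exposed males was -0.19 (95% interval -0.35 to -0.02), less than for Arr2, and did not pass (limma adjusted p = 0.110). It passed with quantile normalization (adjusted p = 0.0419), with trend and robust settings (0.0373) and when replicate 1 of the sucrose parents' sons was left out (0.0258). Whether the difference of Arr1 was smaller than that of Arr2 was not tested.

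TRP and TRPL are the cation channels that open in light. The signals of trpl (1633649_s_at) were 5.12, 5.49 and 5.52 in methylphenidate-exposed males, 5.63, 5.36 and 5.41 in sucrose-exposed males, 4.65, 4.67 and 4.65 in sons of methylphenidate-exposed mothers and 4.95, 4.87 and 4.78 in sons of sucrose-exposed parents. Exposed males overlapped with each other, and all sons lay below them. Sons of sucrose-exposed parents were 1.52-fold lower than sucrose-exposed males (4.86 ± 0.085 against 5.47 ± 0.141, SD, n = 3 each; difference -0.60 ± 0.10 SE on the log2 scale, limma adjusted p = 0.00156), and sons of methylphenidate-exposed mothers were 1.65-fold lower than methylphenidate-exposed males (log2 change -0.72 ± 0.10, limma adjusted p = 0.000496). Among sons, trpl alone of the 10 genes had a lower mean with methylphenidate-exposed mothers than with sucrose-exposed parents. The values did not overlap, and the difference of -0.20 on the log2 scale did not pass (limma adjusted p = 0.658).

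The signals of trp (1622920_at) were 5.90, 6.02 and 5.93 in methylphenidate-exposed males, 5.84, 6.07 and 5.999 in sucrose-exposed males, 5.85, 5.78 and 5.63 in sons of methylphenidate-exposed mothers and 5.67, 5.65 and 5.53 in sons of sucrose-exposed parents. The 2 exposed groups overlapped, as did the 2 groups of sons, and sons of either cross lay below the exposed males of the same agent without overlap. Between the sucrose groups trp was 1.28-fold lower in sons (log2 change -0.35 ± 0.08 SE, limma adjusted p = 0.00792). Between the methylphenidate groups the difference was -0.20 ± 0.08, the values did not overlap, and it did not pass (limma adjusted p = 0.179).

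INAD and INAC belong to the same signalling complex, and their genes differed in course. The signals of inaD (1638319_at) were 4.37, 4.49 and 4.48 in methylphenidate-exposed males, 4.60, 4.56 and 4.69 in sucrose-exposed males, 4.15, 3.99 and 3.97 in sons of methylphenidate-exposed mothers and 3.91, 3.93 and 3.65 in sons of sucrose-exposed parents. No 2 groups overlapped, with sucrose-exposed males highest, then methylphenidate-exposed males, then sons of methylphenidate-exposed mothers, and the other sons lowest. Arr2 had the same order. Between the sucrose groups inaD was 1.72-fold lower in sons (3.83 ± 0.160 against 4.62 ± 0.069, SD, n = 3 each; difference -0.79 ± 0.09 SE on the log2 scale, limma adjusted p = 0.000163). Between the methylphenidate groups it was 1.33-fold lower in sons (log2 change -0.42 ± 0.09, limma adjusted p = 0.00857).

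The kinase gene inaC (1637807_at) had signals of 5.25, 5.31 and 5.24 in methylphenidate-exposed males, 4.97, 5.09 and 5.13 in sucrose-exposed males, 5.39, 5.23 and 5.25 in sons of methylphenidate-exposed mothers and 5.38, 5.28 and 5.08 in sons of sucrose-exposed parents. The sucrose-exposed males were the lowest group, and the other 3 means lay between 5.25 and 5.29. Methylphenidate-exposed males lay above sucrose-exposed males without overlap, by 0.20 ± 0.09 (SE) on the log2 scale, which did not pass (limma adjusted p = 0.265). The difference between sons of sucrose-exposed parents and sucrose-exposed males was 0.18 ± 0.09 (limma adjusted p = 0.168). It passed without replicate 3 of these sons (adjusted p = 0.0445), with quantile normalization (0.0401) and with median centring (0.0287).

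The diacylglycerol kinase RDGA and the rhodopsin phosphatase RDGC act on the turnover of signalling lipid and of rhodopsin. The chosen probe set of rdgA (1641349_at) had signals of 4.89, 4.997 and 4.93 in methylphenidate-exposed males, 4.91, 5.01 and 5.11 in sucrose-exposed males, 4.90, 4.72 and 4.91 in sons of methylphenidate-exposed mothers and 4.76, 4.85 and 4.64 in sons of sucrose-exposed parents. Sons of sucrose-exposed parents lay below sucrose-exposed males without overlap, 1.197-fold lower (log2 change -0.26 ± 0.08 SE, limma adjusted p = 0.0390). The gene had 4 probe sets, and the other 3 differed by -0.19, -0.24 and -0.59 between these groups (limma adjusted p = 0.0997, 0.0804 and 0.00257). The call of the chosen probe set was lost without replicate 2 or 3 of the sucrose-exposed males (adjusted p = 0.0820 and 0.161), without replicate 1 or 3 of these sons (0.0665 and 0.149), in a fit of these groups alone (0.0757), with quantile normalization (0.0664) and with median centring (0.113).

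The chosen probe set of rdgC (1637386_at) had signals of 3.70, 3.59 and 3.54 in methylphenidate-exposed males, 3.44, 3.95 and 3.84 in sucrose-exposed males, 3.68, 3.53 and 3.75 in sons of methylphenidate-exposed mothers and 3.54, 3.28 and 3.19 in sons of sucrose-exposed parents. The sucrose-exposed males were widely spread, and their replicate 1 overlapped with the sons of sucrose-exposed parents. Between the sucrose groups rdgC was 1.33-fold lower in sons (log2 change -0.41 ± 0.12 SE, limma adjusted p = 0.0300), whereas its other probe set differed by -0.13 and did not pass (limma adjusted p = 0.641). The mean of both probe sets did not pass either (log2 change -0.27, adjusted p = 0.142). The call was also lost without replicate 2 or 3 of the sucrose-exposed males (adjusted p = 0.127 and 0.110), without replicate 2 or 3 of these sons (0.0920 and 0.123), in a fit of these groups alone (0.0714) and with quantile normalization (0.0610).

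Calphotin, the product of Cpn, is a calcium-binding protein of photoreceptors. Cpn (1627288_a_at) had signals of 5.35, 5.13 and 5.02 in methylphenidate-exposed males, 4.02, 4.49 and 4.30 in sucrose-exposed males, 6.05, 5.59 and 5.47 in sons of methylphenidate-exposed mothers and 5.62, 5.63 and 5.56 in sons of sucrose-exposed parents. The sucrose-exposed males were the lowest group and the methylphenidate-exposed males came next, each without overlap with its neighbour, whereas the 2 groups of sons overlapped. Cpn was 1.86-fold higher in methylphenidate-exposed than in sucrose-exposed males (5.17 ± 0.166 against 4.27 ± 0.237, SD, n = 3 each; difference 0.89 ± 0.14 SE on the log2 scale, limma adjusted p = 0.00198). In sons of sucrose-exposed parents it was 2.51-fold higher than in sucrose-exposed males (5.60 ± 0.0386 against 4.27 ± 0.237, SD, n = 3 each; difference 1.33 ± 0.14 on the log2 scale, limma adjusted p = 0.000125). In sons of methylphenidate-exposed mothers it was 1.45-fold higher than in methylphenidate-exposed males (log2 change 0.54 ± 0.14, limma adjusted p = 0.0333). That last call was lost without replicate 2 or 3 of the methylphenidate-exposed males (adjusted p = 0.0905 and 0.147), without replicate 1 or 2 of these sons (0.142 and 0.0526) and in a fit of these groups alone (0.0631).

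The enzyme NINAB cleaves and isomerises carotenoids, the step that yields retinal. The signals of ninaB (1625743_at) were 2.91, 2.48 and 2.39 in methylphenidate-exposed males, 1.87, 2.24 and 1.85 in sucrose-exposed males, 3.28, 3.16 and 3.28 in sons of methylphenidate-exposed mothers and 3.42, 3.21 and 2.92 in sons of sucrose-exposed parents. The groups had the same order as for Cpn, and again the sons overlapped with each other and the other neighbours did not. Between sons of sucrose-exposed parents and sucrose-exposed males ninaB was 2.29-fold higher (3.18 ± 0.251 against 1.99 ± 0.221, SD, n = 3 each; difference 1.197 ± 0.15 SE on the log2 scale, limma adjusted p = 0.000300). Between sons of methylphenidate-exposed mothers and methylphenidate-exposed males it was 1.57-fold higher (log2 change 0.65 ± 0.15, limma adjusted p = 0.0141), and this call was lost without replicate 2 or 3 of these exposed males (adjusted p = 0.0580 and 0.0811) or replicate 1 of these sons (0.0544).

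Methylphenidate-exposed males had 1.52-fold more ninaB signal than sucrose-exposed males (2.59 ± 0.280 against 1.99 ± 0.221, SD, n = 3 each; difference 0.60 ± 0.15 SE on the log2 scale, limma adjusted p = 0.0406). The call was lost without replicate 1 or 3 of the sucrose-exposed males (adjusted p = 0.169 and 0.157), without replicate 1 or 2 of the methylphenidate-exposed males (0.179 and 0.0579) and in a fit of these groups alone (0.0955). RNA integrity was read from the GAPDH controls as the 3′ signal minus the 5′ signal, which was 1.504 ± 0.0029 in methylphenidate-exposed and 1.62 ± 0.086 in sucrose-exposed males (SD, n = 3 each). An exact 2-sided permutation test gave p = 0.1, which is the minimum for 3 against 3. With this value as a covariate neither Cpn (log2 change 0.69, limma adjusted p = 0.192) nor ninaB (0.51, limma adjusted p = 0.477) passed between these groups.

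**Figure D2:**
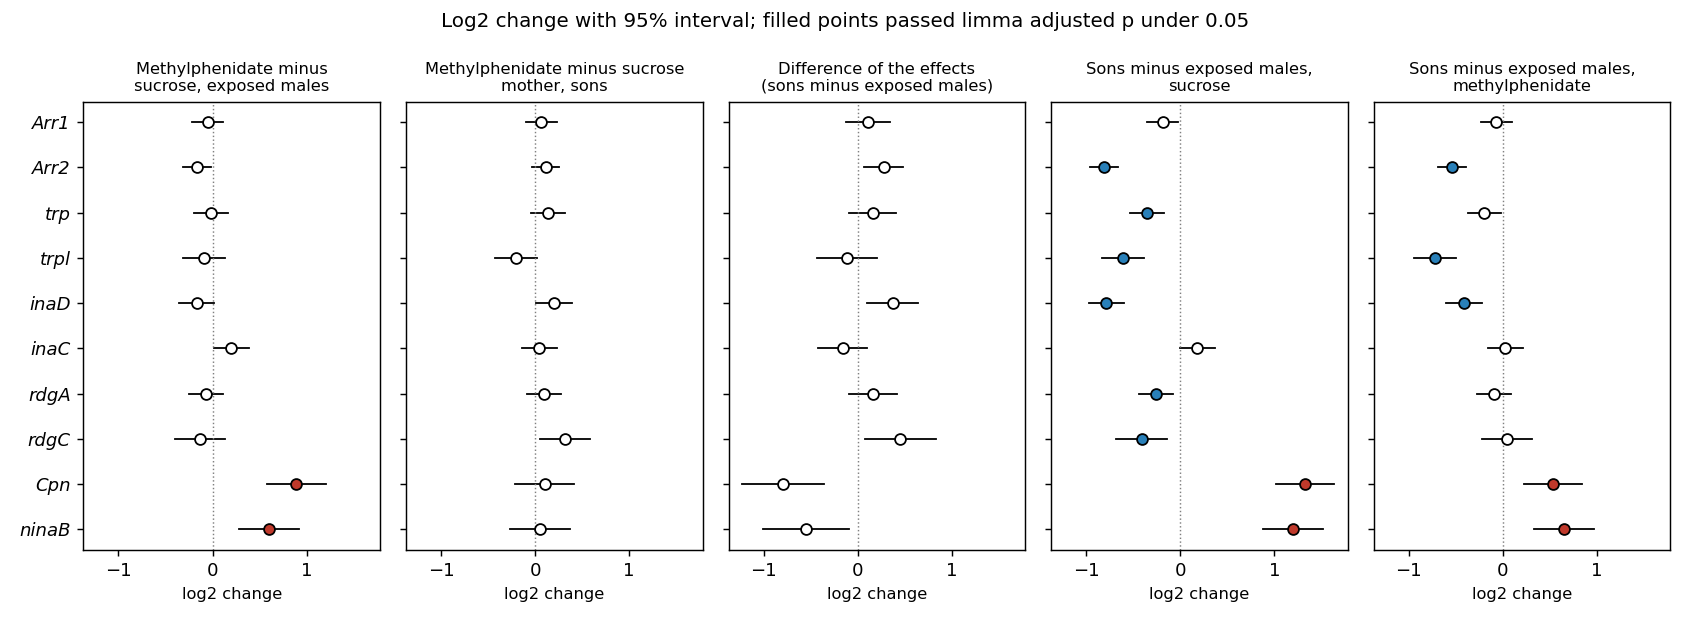
Log2 change of the 10 genes in the 5 comparisons, with 95% intervals of the limma fit. Filled points passed the adjusted threshold, red for higher and blue for lower, and open points did not. Filled points stand in the exposed males for Cpn and ninaB, in neither of the comparisons among sons and of the difference, and in both comparisons of sons with exposed males for Arr2, trpl, inaD, Cpn and ninaB.

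Counted by comparison, 2 of the 10 genes rose and none fell with methylphenidate in exposed males, where 3.35% of all probe sets passed, 2.38% higher and 0.97% lower. The median log2 change was -0.06 over the 10 genes and -0.02 over all probe sets. Groups were fully separated for 5 of the genes (higher for inaC, Cpn and ninaB, lower for Arr2 and inaD), where 21.2% of all probe sets were. The 8 genes that did not pass had differences of at most 0.20 in size on the log2 scale, and 4 of the 10 had an unadjusted p under 0.05.

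Between the 2 groups of sons limma called none of the 10 genes, and 0.00533% of all probe sets. An unadjusted p under 0.05 was found for 2 of them, inaD and rdgC. The log2 differences ran from -0.20 for trpl to 0.32 for rdgC, with limma adjusted p between 0.564 and 0.959, and the widest bounds of their 95% intervals were -0.43 (trpl) and 0.58 (rdgC). Cpn differed by 0.10 (95% interval -0.21 to 0.41) and ninaB by 0.05 (-0.27 to 0.37). The 2 groups of sons were fully separated for Arr2, inaD and trpl, 3 of 10, where 11.5% of all probe sets were.

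Whether the methylphenidate difference among sons differed from that among exposed males was tested directly. In this design it is the same quantity as the difference between the methylphenidate and the sucrose comparison of sons with exposed males. None of the 10 genes passed, as against 2.09% of all probe sets, and 5 had an unadjusted p under 0.05. Cpn came closest, with a lower effect among sons (difference -0.79 ± 0.20 SE, 95% interval -1.23 to -0.36, limma adjusted p = 0.0663). It passed without replicate 2 of the sucrose-exposed males (adjusted p = 0.0442), without replicate 1 of the sons of methylphenidate-exposed mothers (0.0108), with median centring (0.0355) and without the dimmest 50% of probe sets (0.0490). For ninaB the difference was -0.55 ± 0.21 (limma adjusted p = 0.220), for inaD 0.37 ± 0.13 (0.165), for Arr2 0.28 ± 0.10 (0.182) and for rdgC 0.45 ± 0.18 (0.225). So trp, rdgA and rdgC, which passed between the sucrose groups and not between the methylphenidate groups, are not shown to differ between these comparisons (limma adjusted p = 0.570, 0.553 and 0.225).

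Between sons of sucrose-exposed parents and sucrose-exposed males, 2 of the 10 genes rose and 6 fell, where 20.5% of all probe sets passed, 6.33% higher and 14.2% lower. The median log2 change was -0.31 over the 10 genes and -0.03 over all probe sets. Since the genes were chosen with results of these arrays known, nothing about the pathway is read from the share of 8 in 10. Groups were fully separated for 8 of the genes (32.9% of all probe sets), with Arr1 and not rdgC among them. When replicate 3 of these sons was left out the count past the threshold was 7, with rdgA and rdgC lost and inaC gained. Between sons of methylphenidate-exposed mothers and methylphenidate-exposed males, 2 rose and 3 fell, where 8.52% of all probe sets passed, 4.76% higher and 3.76% lower, and 6 were fully separated (28.2% of all probe sets). These sons also differ from the exposed males in whose exposure it was, theirs or their mothers', so generation and route of exposure cannot be told apart. The labels give no age or food for the sons, and these cannot be told apart from generation in either comparison.

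Other genes of the pathway were taken from lists by role, each read through its single-gene probe set of highest mean signal. Galphaq, rtp, inaE, rdgB, PIP5K59B, Camta, Rh7 and, of the photoreceptor list below, eys had further probe sets, whose values are not given. The 5 lists of rhodopsins, G protein and phospholipase C, lipid and calcium turnover, chromophore, and folding and traffic held 43 names. Cds and CdsA name the same gene, and 26 genes were measured. The rhodopsin genes of the photoreceptors, norpA and ninaC had no single-gene probe set under these names and were not analysed here. Between sons of sucrose-exposed parents and sucrose-exposed males 2 of the 26 rose and 6 fell (20.5% of all probe sets passed), with a median log2 change of -0.11. Between the methylphenidate groups 3 rose and 1 fell (8.52% of all probe sets). With methylphenidate in exposed males 1 of the 26 fell and none rose, where 3.35% of all probe sets passed, 0.97% lower. It was PIP5K59B, a phosphoinositide kinase, lower by 0.31 on the log2 scale (limma adjusted p = 0.0453). That call was lost without any 1 of the 6 arrays (adjusted p up to 0.135), in a fit of these groups alone (0.0570), with trend and robust settings (0.0619) and with the GAPDH covariate (0.274). Between the 2 groups of sons limma called none.

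The genes that fell in sons of sucrose-exposed parents came from the G protein list and the lipid and calcium list. Galphaq, the alpha subunit of the Gq protein, had a log2 signal of 5.33 in these sons against 5.88 in sucrose-exposed males (log2 change -0.55 ± 0.08 SE, limma adjusted p = 0.000650). The retinophilin gene rtp fell by 0.32 (limma adjusted p = 0.00664). Camta, a calmodulin-binding transcription activator, fell by 0.65 (0.000878), rdgB, a phosphatidylinositol transfer protein, by 0.33 (0.00981) and PIP5K59B by 0.37 (0.00463). Plc21C, another phospholipase C, fell by 0.41 (limma adjusted p = 0.0338) and is named after its value was seen. It did not pass without replicate 2 or 3 of the sucrose-exposed males (adjusted p = 0.0806 and 0.135) or replicate 3 of these sons (0.146).

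The other 3 measured genes of the G protein list did not pass in this comparison. inaE, a diacylglycerol lipase, had a log2 signal of 2.51 in these sons against 2.93 in sucrose-exposed males (difference -0.41 ± 0.15 SE, limma adjusted p = 0.0615). stops, a protein that keeps the phospholipase C stable, had 3.81 in these sons against 3.78 in sucrose-exposed males (limma adjusted p = 0.904). Gbeta76C, the eye's G protein beta subunit, named after its value was seen, had 6.85 in these sons against 6.93 in sucrose-exposed males (limma adjusted p = 0.562). Between the methylphenidate groups Galphaq differed by -0.09 and did not pass (limma adjusted p = 0.538). The difference between these comparisons passed for 2 of the 26 genes of the 5 lists, where 2.09% of all probe sets passed. They were Galphaq (0.45 on the log2 scale, limma adjusted p = 0.0469) and PIP5K59B (0.49, 0.0398). When each of the 12 arrays was left out in turn, they passed in 1 and 2 of 12 fits (adjusted p up to 0.126 and 0.102). Median centring also ended both calls (0.0518 and 0.0664), and for PIP5K59B quantile normalization (0.0566), trend and robust settings (0.0521) and the GAPDH covariate (0.106) did so.

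Of the 6 measured genes of chromophore supply, 2 rose between the sucrose groups (6.33% of all probe sets were higher) and 2 between the methylphenidate groups (4.76% higher), and none fell. ninaD, a scavenger receptor that takes up carotenoids, had a log2 signal of 6.11 in sons of sucrose-exposed parents against 4.39 in sucrose-exposed males, a 3.30-fold increase (log2 change 1.72 ± 0.34 SE, limma adjusted p = 0.00317). ninaG, an oxidoreductase of chromophore synthesis, rose 1.84-fold in the same comparison (1.95 against 1.07; limma adjusted p = 0.00222). Its 1.07 in sucrose-exposed males was under the median signals of those arrays, 1.51 to 1.56. In sons of methylphenidate-exposed mothers ninaG was 1.71-fold higher than in methylphenidate-exposed males (limma adjusted p = 0.00825, and 0.0510 without replicate 3 of these males), and ninaD differed by 0.73 ± 0.34 without passing (0.225). Pdh, the retinol dehydrogenase of pigment cells, rose 1.30-fold there (limma adjusted p = 0.0346), a call lost without any 1 of the 6 arrays (adjusted p up to 0.149) and with the GAPDH covariate (0.0535). The retinol dehydrogenase gene rdhB differed by 0.22 between the sucrose groups and by 0.39 between the methylphenidate groups, and did not pass (limma adjusted p = 0.255 and 0.0718).

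**Figure D3:**
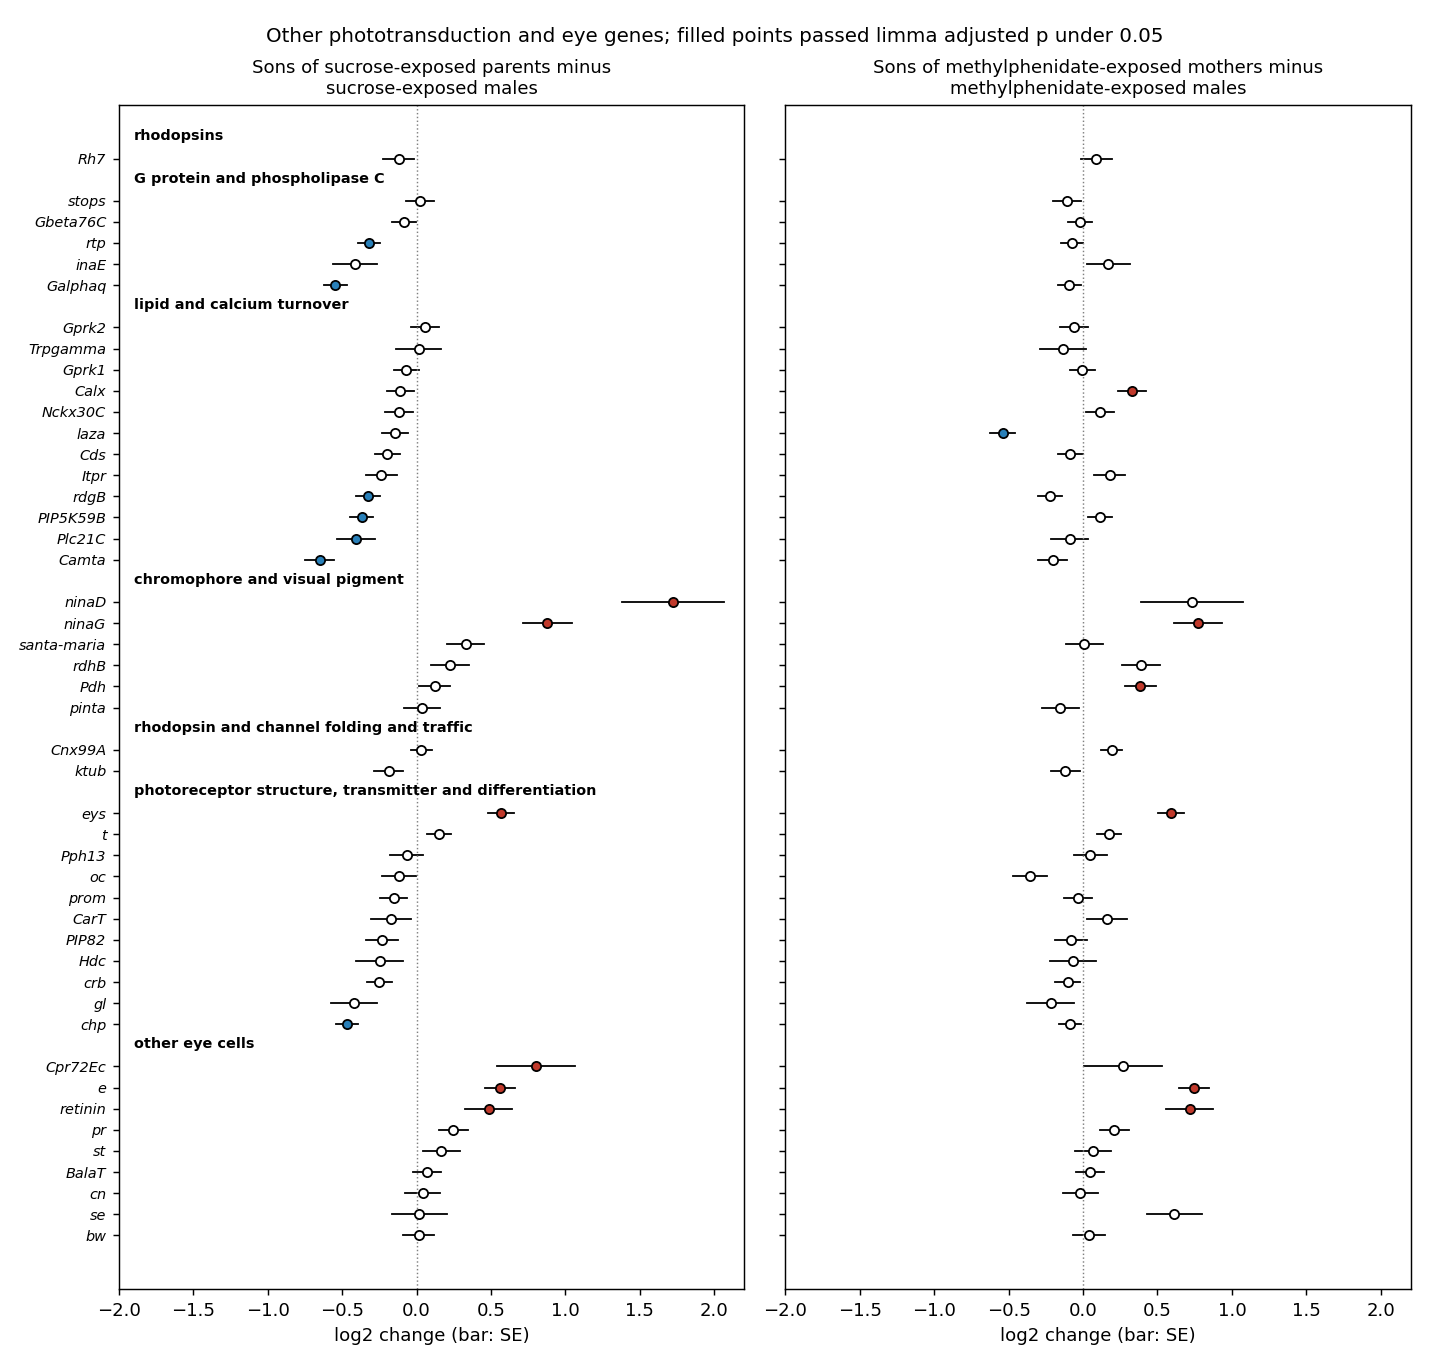
Log2 change, with its SE as a bar, of the measured genes of 7 lists in the sons of sucrose-exposed parents against sucrose-exposed males (left) and in sons of methylphenidate-exposed mothers against methylphenidate-exposed males (right). Filled points passed the adjusted threshold, red for higher and blue for lower. On the left the chromophore genes ninaD (1.72) and ninaG (0.88) lie on the right of the zero line and Galphaq (-0.55) and Camta (-0.65) on its left.

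Of the lipid and calcium genes, laza, a lipid phosphatase, was 1.45-fold lower in sons of methylphenidate-exposed mothers than in methylphenidate-exposed males (log2 change -0.54 ± 0.08 SE, limma adjusted p = 0.000905) and differed by -0.14 between the sucrose groups (0.284). The sodium-calcium exchanger gene Calx, named after its value was seen, was 1.26-fold higher between the methylphenidate groups (limma adjusted p = 0.0390), and did not pass when any 1 of 5 of the 6 arrays was left out (adjusted p up to 0.166). Rh7, the one rhodopsin gene measured, differed by -0.12 between the sucrose groups and by 0.09 between the methylphenidate groups (limma adjusted p = 0.512 and 0.687). Between the groups of sons Rh7 differed more, by 0.36 on the log2 scale, and did not pass. Its mean signal was 1.08 in sons of methylphenidate-exposed mothers and 0.72 in sons of sucrose-exposed parents, without overlap. Cnx99A and ktub, the measured genes of folding and traffic, did not pass in any comparison.

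Of 11 measured genes of photoreceptor structure, transmitter and differentiation, 1 rose and 1 fell between the sucrose groups, a share near that of all probe sets (20.5%). In the methylphenidate comparison of sons with exposed males 1 rose (8.52% of all probe sets passed). eys, which encodes a secreted protein of the space between rhabdomeres, was 1.48-fold higher in sons of sucrose-exposed parents than in sucrose-exposed males (limma adjusted p = 0.000886) and 1.51-fold higher in sons of methylphenidate-exposed mothers than in methylphenidate-exposed males (0.000494). chp, which encodes the photoreceptor surface protein chaoptin, was 1.38-fold lower in sons of sucrose-exposed parents than in sucrose-exposed males (5.25 against 5.71; limma adjusted p = 0.00121) and differed by -0.09 between the methylphenidate groups (0.540). The polarity gene crb (-0.25, limma adjusted p = 0.0532) did not pass between the sucrose groups, nor did oc, a homeobox gene at the floor of the scale (-0.36, 0.0701), between the methylphenidate groups.

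Of 9 measured genes of pigment, cone and glial cells of the eye, 3 rose and none fell between the sucrose groups (6.33% of all probe sets were higher), and 2 rose between the methylphenidate groups (4.76% higher). e, which encodes an enzyme that couples beta-alanine to histamine and dopamine, was 1.48-fold higher in sons of sucrose-exposed parents (limma adjusted p = 0.00193) and 1.67-fold higher in sons of methylphenidate-exposed mothers (0.000314) than in the exposed males of the same agent. The corneal lens gene retinin was 1.40-fold and 1.64-fold higher in these comparisons (limma adjusted p = 0.0426 and 0.0111). The cuticle gene Cpr72Ec rose 1.74-fold between the sucrose groups (0.0443). se, which encodes an enzyme of eye pigment synthesis, differed by 0.02 between the sucrose groups and by 0.61 between the methylphenidate groups, and did not pass (limma adjusted p = 0.969 and 0.0554). The calls of retinin and Cpr72Ec between the sucrose groups were lost without 4 and 5 of the 6 arrays in turn (adjusted p up to 0.190 and 0.167), with trend and robust settings (0.108 and 0.139) and with the GAPDH covariate (0.130 and 0.116). The call of retinin was also lost in a fit of these groups alone (0.0692), and that of retinin between the methylphenidate groups when replicate 3 of the exposed males was left out (0.0534).

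Markers of other tissues moved in the same comparisons. Between sons of sucrose-exposed parents and sucrose-exposed males 6 of 9 testis genes and 4 of 14 neuron genes fell, and 4 of 7 muscle, 4 of 8 accessory gland and 4 of 6 gut genes rose, where 14.2% of all probe sets were lower and 6.33% higher. Of 6 antenna and head fat body genes 1 rose. The summed log2 signal of the testis list was 10.28 to 10.48 in these sons and 10.76 to 10.89 in sucrose-exposed males, and that of the neuron list was 8.94 to 9.18 in these sons and 9.17 to 9.29 in sucrose-exposed males. The sums in these sons were 11.35 to 11.56 for muscle, 12.40 to 12.50 for the accessory gland and 11.61 to 11.76 for gut. In sucrose-exposed males they were 11.18 to 11.32 for muscle, 12.19 to 12.25 for the accessory gland and 11.23 to 11.50 for gut. Of the defining markers, aly of the testis and VGlut of neurons had a mean under 0.5. Between the methylphenidate groups none of the testis and neuron genes passed, and 5 of 7 muscle, 5 of 8 accessory gland and 3 of 6 gut genes rose, where 4.76% of all probe sets were higher. The testis sum was still lower in sons of methylphenidate-exposed mothers, 10.40 to 10.52 against 10.53 to 10.71 in methylphenidate-exposed males. The neuron sum was higher in these sons, 9.18 to 9.25 against 9.08 to 9.16. Of the antenna and head fat body genes 1 rose and 1 fell there. With methylphenidate in exposed males, 2 gut genes rose and 3 fell, where 2.38% of all probe sets were higher and 0.97% lower. The gut sum was 10.94 to 11.25 in methylphenidate-exposed and 11.23 to 11.50 in sucrose-exposed males. No testis or accessory gland gene passed, but their sums were lower with methylphenidate without overlap. The testis sum was 10.53 to 10.71 against 10.76 to 10.89, and the accessory gland sum 11.99 to 12.16 against 12.19 to 12.25. The neuron sum was 9.08 to 9.16 against 9.17 to 9.29, also without overlap. The sums of muscle and of antenna and head fat body overlapped. In the same comparison 1 neuron gene and 1 antenna and head fat body gene fell, where 0.97% of all probe sets were lower. The part of these tissues in the results for the 10 genes was not tested.

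The mean course of the 10 genes over the 12 arrays was most like that of Scamp (Pearson r = 0.901), CG3036 (0.892), Schip1 (0.882), CG15027 (0.864) and mon2 (0.858). They were taken out of 8374 single-gene probe sets with a mean signal above the median of all probe sets. These points share arrays and their level, and replicate 3 of the sons of sucrose-exposed parents was low for all 10 genes. Within groups, as deviations from the group means, r was 0.793 to 0.905 for these genes. The value is given as a description.

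**Figure D4:**
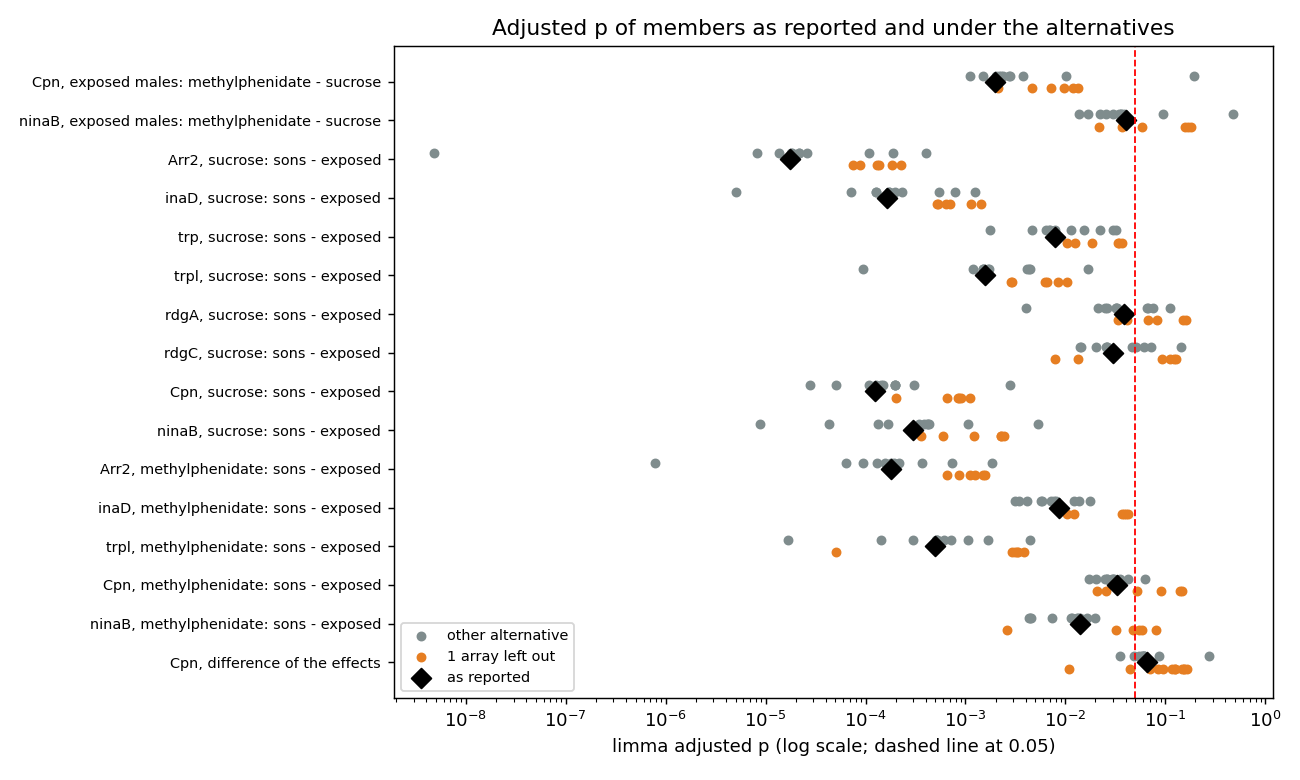
Limma adjusted p on a log axis for each gene and comparison that passed, and for the difference of the effects for Cpn. Black diamonds are the values as reported, grey points other ways of processing and orange points fits with 1 array left out, with the threshold of 0.05 as a dashed line. Arr2, inaD, trp and trpl stay left of the line throughout, as do Cpn and ninaB between the sucrose groups. The other rows have points on both sides: rdgA, rdgC, and Cpn and ninaB in exposed males and between the methylphenidate groups. The difference of the effects for Cpn does so too.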

How the data were processed

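Each array has 1 deposited log2 signal for every probe set, made by the authors. RMA, affy and limma are listed, per the submitters' processing notes, without a version, a role or parameters. The log base was checked on the hybridization controls: Cre exceeded BioB by 5.72, and their nominal concentrations differ by 6.06 in log2. The arrays hold 18952 probe sets, of which 18769 were tested with no filter after removal of 183 controls. Gene names came from the platform annotation, and 13544 of 13647 single-gene probe sets took their symbol, changed or not, through RefSeq gene identifiers (402 probe sets had several genes and 4720 were unnamed here). All 12 arrays entered 1 fit of 4 group means in limma 3.58.1 (R 4.3.3; lmFit, contrasts.fit, eBayes), with 5 contrasts and Benjamini-Hochberg adjusted p-values, tested on simulated data. Plots used matplotlib 3.10.9.

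The 10 genes and the lists were chosen with earlier results of these data known. Named were the 10 genes, up to 4 genes of each phototransduction, photoreceptor and eye list with the smallest p in any contrast, and the 5 genes most like the mean of the 10. Names outside this rule are marked. The number of arrays limits the precision. Alternatives were a fit of the contrast's groups alone, the replicate number as a block, filters on the dimmest 30% and 50%, quantile normalization, median centring, trend and robust eBayes, array weights, a GAPDH 3′ minus 5′ covariate, a mean over a gene's probe sets, 1 probe set per gene, and leaving out each array. For the lists, these alternatives were applied after seeing the data.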

Additional observations from a re-analysis of the deposited data

How the results depend on the processing

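Of 900 recomputed changes of the 10 genes over the alternatives, 845 kept their direction and their side of the threshold, 31 no longer passed, 10 newly passed, and 14 changed sign without ever passing; no change that passed, as reported or under an alternative, had the other sign. The count of genes past the threshold in exposed males was 2, and 1 in a fit of these groups alone, 0 with the GAPDH covariate, and 1 to 2 without 1 array. For the difference of the effects it was 0, and 1 without the dimmest 50% of probe sets or with median centring, and 0 to 1 without 1 array. Between the methylphenidate groups it was 5, and 3 to 5 without 1 array. Between the sucrose groups it was 8, and 6 to 9 over all alternatives, and between the 2 groups of sons it was 0 under each of 17 alternatives. Over all probe sets the counts ran from 203 to 1009 (629 as reported) in exposed males, 0 to 5 (1) between sons, 209 to 616 (393) for the difference, 2604 to 4114 (3854) between the sucrose groups and 873 to 2114 (1599) between the methylphenidate groups; the causes were not tested. Without replicate 3 of the sons of sucrose-exposed parents, 7 of the 26 other phototransduction genes passed between the sucrose groups, against 8. Replicate numbers did not pair the arrays: deviations of same-numbered arrays correlated at -0.174 to 0.133, over 0.1 in 2 of 18 pairs, and the best match had the same number in 11 of 36 cases. With the replicate block the counts were 2 in exposed males, 0 between sons, 0 for the difference, 6 between the sucrose groups, where rdgA (adjusted p = 0.0652) and rdgC (0.0515) no longer passed, and 5 between the methylphenidate groups. Among the other named genes the block ended the calls of PIP5K59B in exposed males (0.0787), of Plc21C (0.0536) and Cpr72Ec (0.0565) between the sucrose groups, and of Galphaq (0.0901) and PIP5K59B (0.0689) for the difference of the effects. Signals close to the floor of the scale limit what can be read for oc and Rh7, and the low signal in sucrose-exposed males does so for ninaG. The same holds for Trpgamma, prom, BalaT and cn, which had a mean under 0.5 and are counted as measured in their lists.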

Other observations

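The courses of single genes were compared with those of other genes after their values had been seen. The comparison took single-gene probe sets with a mean signal above the median of all probe sets. Over the 12 arrays Cpn was most like CG30371 (Pearson r = 0.974), AOX1 (0.974), an aldehyde oxidase, Dhrs4 (0.971), LManIII (0.969), a lysosomal mannosidase, and Mal-A4 (0.969), a maltase. For ninaB the closest were mEFTu1 (0.977), Vha14-1 (0.975), a subunit of the vacuolar proton pump, CG31673 (0.968), Acadvl (0.966) and CG7054 (0.965). No gene of the phototransduction, photoreceptor and other eye lists (26, 11 and 9 measured genes) was among these 10. These are few of the 8386 probe sets compared, so nothing is read from the absence. For Arr2 the closest were Rab14 (0.975), mlt (0.972), inaD (0.969), hzg (0.968) and CG42390 (0.967), and for trpl CG18598 (0.967), CG15124 (0.966), CG4546 (0.964), the insulin receptor gene InR (0.960) and sowi (0.958). All genes share the 12 arrays and their 4 groups, and the values are descriptions over 8386 single-gene probe sets. As deviations from the group means, r over the 5 closest genes was 0.724 to 0.852 for Cpn, 0.789 to 0.857 for ninaB and 0.714 to 0.846 for trpl. For Arr2 it was 0.683 (Rab14), 0.267 (mlt), 0.552 (inaD), 0.182 (hzg) and 0.694 (CG42390).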
